A study of Mus musculus with 50 samples.

Results

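The first 40 Mb of the mouse X chromosome, from its centromeric end, hold 266 of the 24391 genes counted in these libraries. The 266 were taken by position alone: every gene placed on chromosome X with a listed start from 0 to below 40 Mb (build mm9), apart from ribosomal protein genes and a fixed set of genes that includes many reported to escape X inactivation. That exclusion took out 15 genes of the stretch. The rule uses position and gene names and no measured value of these libraries, though the stretch was picked with earlier results known. Of the 266, 93 had no read in any of 8 RNA-seq libraries, 57 had reads but fell under the low-count filter in ES cells, and 116 passed it. Reads that could be given to a parental chromosome averaged at least 20 per ES library for 60 of those 116. A gene that passed a filter only through the genotype where it is high had to differ, so counts over the 116 and the 60 are set beside the same counts over all genes tested.

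RNA-seq was done on mouse embryonic stem (ES) cells that had been differentiated and on mouse embryonic fibroblasts (MEF), all from a CAST/Ei x 129/Sv/Jae background, which lets a read that covers a strain variant be traced to the 129 or the CAST chromosome. The ES cells were wild type, Repeat B +/- (RepB+/-) or Repeat B -/- (RepB-/-), with 2 libraries each. They were grown for 3 days on irradiated fibroblast feeders, freed of them, kept in suspension as embryoid bodies for 4 days and then plated on gelatin for 10 days. MEF were wild type or carried a loss of Repeat B, with 1 library each. The labels do not say which chromosome lost the repeat in RepB+/- cells, whether the MEF lost it on 1 or both chromosomes, how many clones each genotype stands for, or whether 2 libraries of a genotype came from separate cultures. The p-values therefore measure only the spread between these libraries, which may be technical. The other 42 of the series' 50 samples were not analysed here.

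In female mammals 1 X chromosome is silenced early in development, so that females and males have like doses of X-linked gene products. The long non-coding RNA Xist is made from the chromosome to be silenced, spreads along it and brings in Polycomb complexes, which place repressive marks on histones. Repeat B is a tandem repeat inside Xist that is known for its part in that recruitment. Genes between 0 and 40 Mb lie far from the Xist locus and include housekeeping enzymes, signalling kinases, immune genes and the Rhox cluster of reproductive homeobox genes. In these libraries Xist itself was read mostly from the 129 chromosome. Of its allelic reads, 98.9% and 98.6% came from 129 in wild type ES cells, 97.8% and 97.2% in RepB+/-, and 89.2% and 87.2% in RepB-/-. In wild type and RepB MEF it was 99.7% and 99.2%. The 129 chromosome thus made most of the Xist in every library, with the largest part from CAST in RepB-/-. The share of a gene's allelic reads that came from the 129 chromosome, called the 129 share, was followed throughout.

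Total counts ran from 8000722 to 28045645 reads per ES library and were 12126941 and 18631736 in MEF. Genes of the stretch together had 6143 to 24543 allelic reads per ES library. The 2 libraries of each genotype differed by more than counting noise (chi-square per gene 7.22, 16.0 and 13.8). Summed marker levels show mixed cultures: cardiomyocyte markers came to 471 and 518 CPM (read counts scaled by library size) in wild type and 186 to 248 in the RepB libraries, pluripotent cell markers to 200.5 and 240.4 against 419 to 638, and yolk sac and hepatocyte markers to 302 and 326 against 567 to 788. Fibroblast markers came to 38755 and 32738 CPM in MEF, 17032 and 32067 CPM in the RepB+/- libraries, which differ most, and 19945 to 26445 CPM in the other ES libraries. In such bulk samples, fewer cells of a type and less RNA per cell cannot be told apart.

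Genes of the stretch were read mostly from CAST in wild type cells and much more evenly in both RepB genotypes. The median 129 share over the 60 genes was 8.92% and 7.57% in the wild type libraries, 39.9% and 37.7% for RepB+/- and 41.0% and 40.8% for RepB-/-. No RepB library came near a wild type library. The RepB cultures also had higher summed pluripotent cell markers and lower cardiomyocyte markers (above). Genotype and make-up of the cultures differ together here, and the part of the make-up in these shares was not tested. The medians were 30.6 percentage points higher in RepB+/- and 32.6 points higher in RepB-/- than in wild type (exact two-sided permutation test of library values, p = 0.333 for each, the smallest that 2 libraries against 2 can give). RepB-/- lay 2.07 points above RepB+/- (exact p = 0.333), and this difference turned negative (-0.309 points) when genes with 10 or more allelic reads were taken. Genes of chromosome 13, where both strains are read, had medians between 50.0% and 50.8% in all 6 libraries.

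**Figure D1:**
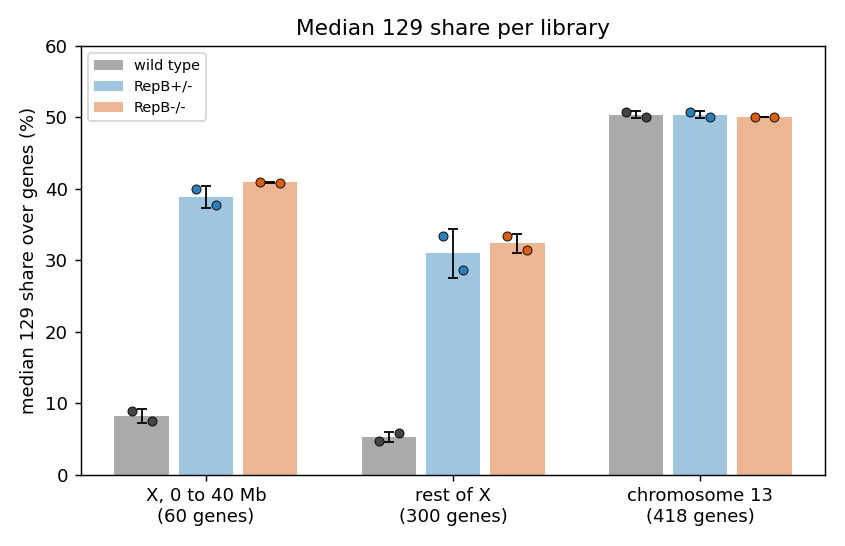
Median 129 share (percent of allelic reads) over genes for each ES library (points), with genotype means (bars) and SD (error bars, n = 2), for the 60 genes of the stretch, 300 other X-linked genes and 418 genes of chromosome 13. The RepB libraries of the stretch sit between 37.7% and 41.0%, wild type at 8.92% and 7.57%, and chromosome 13 stays near 50% in every genotype.

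The rest of the X moved the same way from a lower level. Its median 129 share over 300 genes was 4.74% and 5.80% in wild type libraries, 33.3% and 28.6% for RepB+/- and 33.3% and 31.4% for RepB-/-. Within each library the stretch lay above the rest of the X by 2.98 points in wild type, 7.86 for RepB+/- and 8.51 for RepB-/-. From the rest of the X only Xist, ribosomal protein genes and the same fixed set of genes were left out. Other genes reported to escape could thus remain in it, so these sets were not chosen alike. In percentage points the gap was 4.88 points wider in RepB+/- and 5.53 points wider in RepB-/- than in wild type (exact two-sided permutation test, p = 0.333 for each, the smallest the design allows). Between the RepB genotypes the gap differed by 0.645 points (exact permutation p = 0.667), and by -1.36 points when genes with 10 or more allelic reads were taken. The wider gap holds on the scale of points only: the median change of the log2 ratio was 2.77 and 2.79 in the stretch and 2.92 and 2.99 on the rest of the X.

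Along the stretch the shares were alike in level, with little relation to position (Pearson r = 0.08, Spearman rho = 0.09 between start and RepB-/- share over 60 genes, which share the same libraries). From 0 to 10 Mb, where 33 of the 60 lie, the median was 8.64% ± 1.47 in wild type, 38.6% ± 1.501 for RepB+/- and 39.2% ± 2.54 for RepB-/- (SD, n = 2). From 10 to 20 Mb (8 genes) it was 5.13% ± 2.30, 34.8% ± 2.89 and 38.2% ± 1.01. From 20 to 30 Mb (10 genes) it was 9.47% ± 1.33, 43.2% ± 0.731 and 43.0% ± 1.95. The last 10 Mb (9 genes) had 9.15% ± 1.20, 35.7% ± 3.37 and 39.4% ± 4.36. In all 4 intervals the RepB values lay above wild type by more than the spread between libraries.

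**Figure D2:**
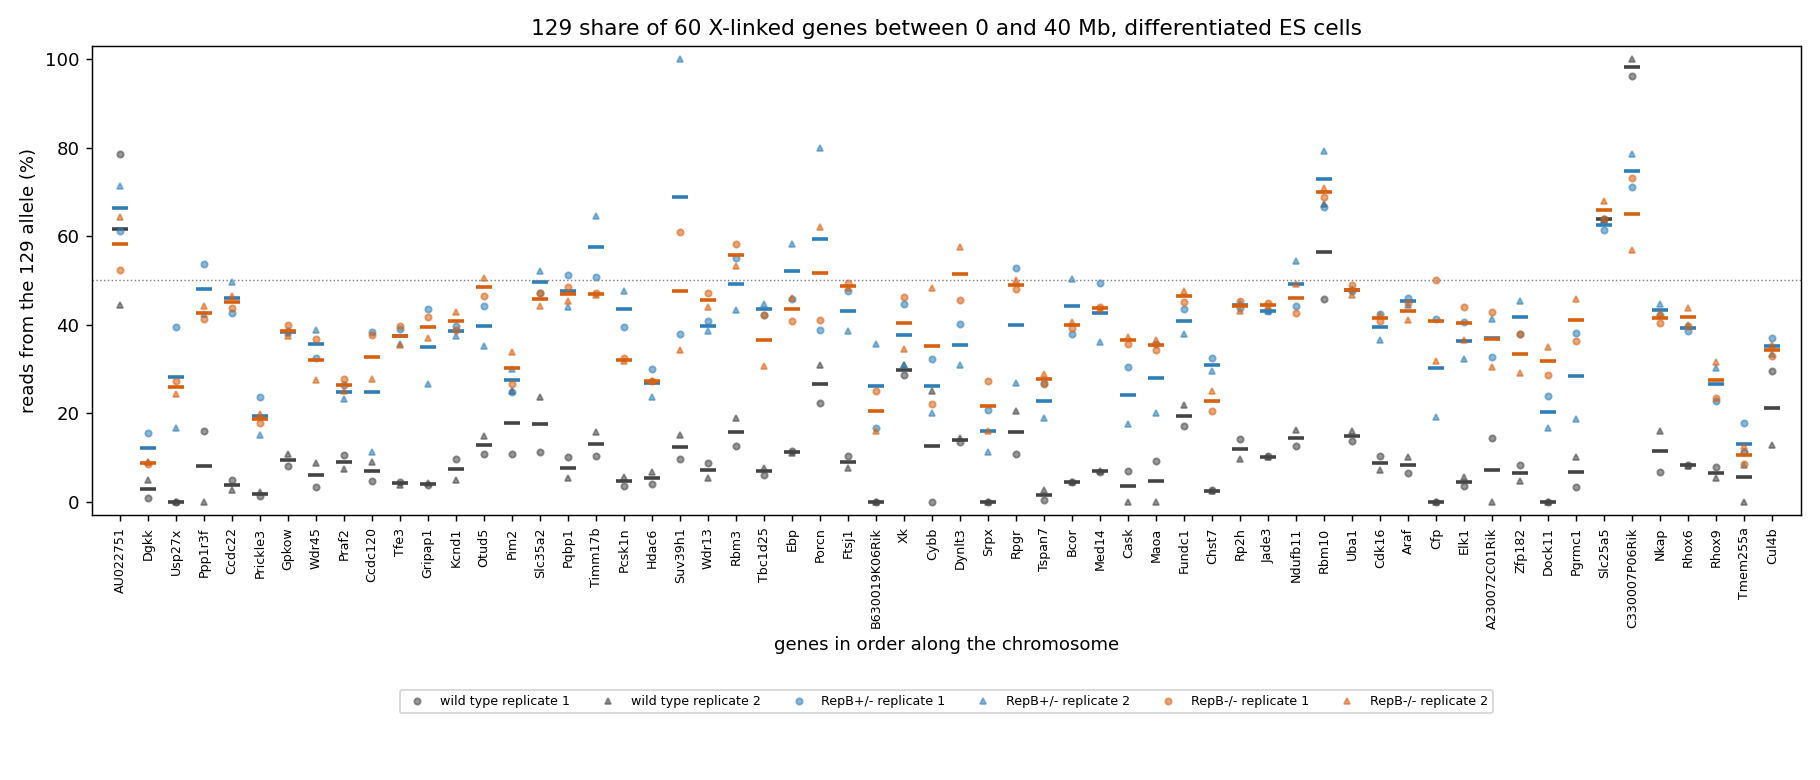
The 129 share (percent of allelic reads) of each of the 60 genes, in order along the chromosome, in the 6 ES libraries (points; circles replicate 1, triangles replicate 2), with the genotype means (short lines). Wild type points lie mostly under 20% and RepB points mostly between 20% and 50%; AU022751, Rbm10, Slc25a5 and C330007P06Rik are high in wild type too.

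Gene by gene, the ratio of 129 to CAST reads rose in 38 of 60 genes in RepB+/- (2.10% of the 11597 genes tested were called in that direction) and in 38 of 60 in RepB-/- (2.24% of all genes), and fell in none (0.293% and 0.190% of all genes). At an unadjusted p under 0.05, 1 gene, C330007P06Rik, was lower in each RepB genotype, and DESeq2 called none lower. The median change of the log2 ratio was 2.77 in RepB+/- and 2.79 in RepB-/-, against 0.01 and 0.02 over all genes. The share was higher in both libraries with the deletion than in either wild type library for 52 of the 60 genes in RepB+/- and 56 in RepB-/-, where 14.7% of all genes did so in each comparison. Both comparisons use the same wild type libraries. On the rest of the X, 173 and 184 of 300 genes rose (57.7% and 61.3%), and on chromosome 13 none of 418 did.

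The change was larger in 129 reads than in CAST reads. Counts of 129 reads, scaled to all reads of the library, rose in 47 of the 60 genes in RepB+/- (5.66% of all genes) and in 49 in RepB-/- (5.26%), and fell in none (3.35% and 2.38%; none at an unadjusted p under 0.05 either). Their log2 change was above 0 in all 60 in both. The median change was 2.83 and 2.67. Counts of CAST reads fell in 7 genes in each RepB genotype (1.18% and 1.14% of all genes) and rose in 3 and 2 (1.02% and 0.793%), with medians of -0.19 and -0.09. On the rest of the X, 129 reads rose in 73.3% and 68.3% of 300 genes. There CAST reads fell in 6.33% and 8.67% and rose in 4.67% and 1.67%, with medians of -0.13 and -0.16. The counts for CAST reads are the less stable ones: leaving out each library in turn gave 2 to 6 lower and 0 to 3 higher in RepB+/-, and 2 to 8 lower and 0 to 2 higher in RepB-/-. Without wild type replicate 2 the counts of lower genes were 2 and 3, and without RepB-/- replicates 1 and 2 that of RepB-/- was 3 and 2. The higher genes came to 1 in RepB+/- without either wild type library and to 0 without RepB+/- replicate 1; in RepB-/- they came to 1, 1 and 0 without wild type replicate 2, RepB-/- replicate 1 and RepB-/- replicate 2.

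**Figure D3:**
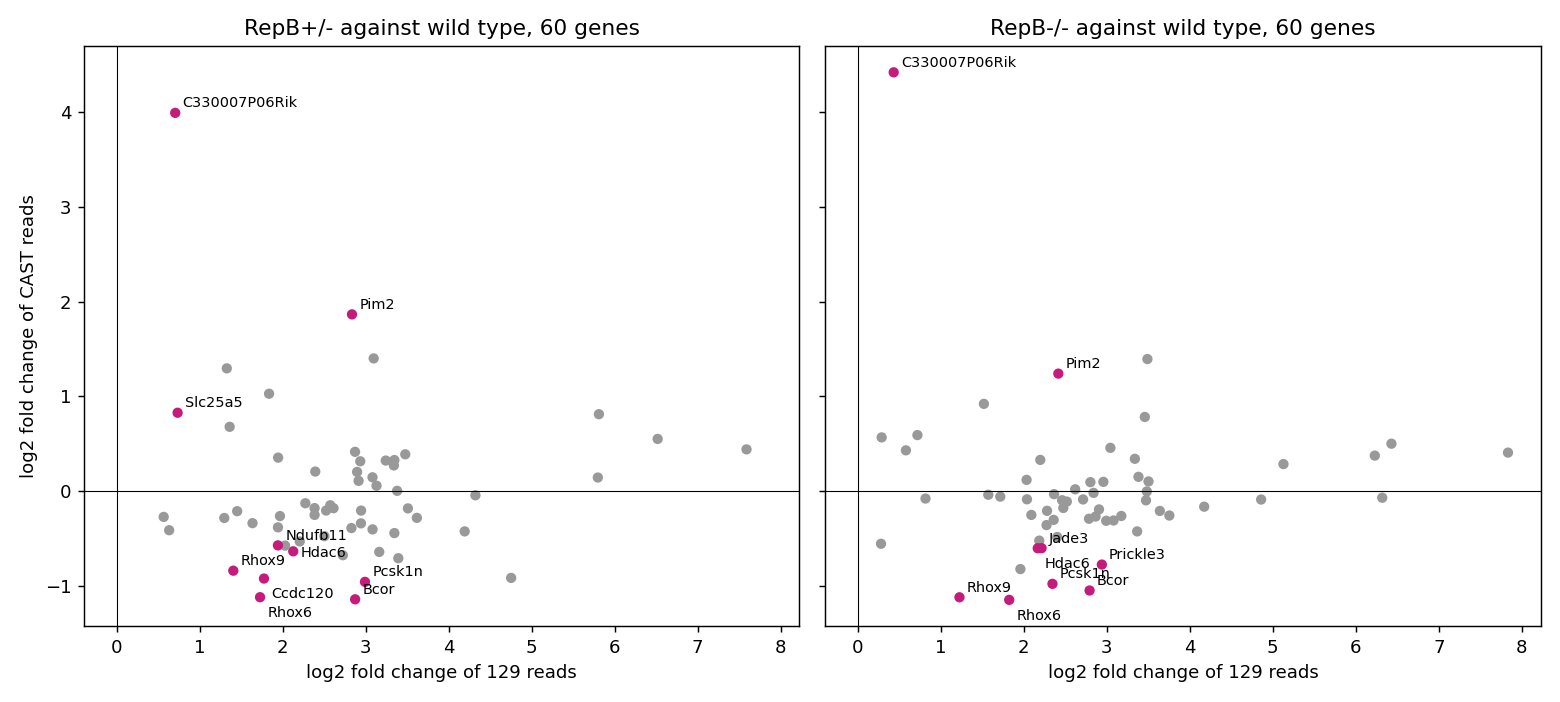
Log2 fold change of CAST reads (vertical) against that of 129 reads (horizontal) for the 60 genes, RepB+/- and RepB-/- against wild type; coloured and named points passed an adjusted p of 0.05 for CAST reads (edgeR). All points lie right of 0, and most lie close to the horizontal line at 0.

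Uba1, Hdac6, Ndufb11 and Cdk16 carried the most allelic reads of the 60, and their values are the most precise. Uba1 (chrX:20235428-20235854 for the listed exon, plus strand) encodes the enzyme that activates ubiquitin at the head of the ubiquitin pathway. Its 129 share was 13.7% and 16% in wild type libraries, 47.6% and 48% for RepB+/- and 48.9% and 46.6% for RepB-/-, from 1085 to 4135 allelic reads per library. All 4 RepB libraries lay above 46%, and both wild type libraries at or under 16%. The log2 ratio rose by 2.40 (SE 0.19, adjusted p = 2.93e-34) for RepB+/- and 2.40 (SE 0.19, adjusted p = 2.85e-35) for RepB-/-. In levels, 129 reads of Uba1 were 12.7 and 14.9 CPM in wild type libraries, 65.4 and 67.3 CPM for RepB+/- and 69.8 and 71.6 CPM for RepB-/-, while CAST reads were 80.0 and 78.2 CPM in wild type libraries, 72.1 and 72.9 CPM for RepB+/- and 72.9 and 82 CPM for RepB-/-. CAST reads did not pass the test (adjusted p = 0.938 and 1). Total RNA of Uba1 rose by 0.49 in RepB+/- and 0.50 in RepB-/-, a call kept in 3 and 2 of the 6 fits that leave out 1 library each.

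The other members of the ubiquitin pathway were read less deeply. The list held 6 genes, all tested for total RNA, and 4 with allelic counts. The ratio rose in 2 of the 4 in each RepB genotype, Uba1 and Otud5. It rose in 2.10% and 2.24% of all genes and in 57.7% and 61.3% of other X-linked genes. Otud5, a deubiquitinating enzyme, had a 129 share of 10.7% and 14.9% in wild type libraries, 44.2% and 35.1% for RepB+/- and 46.4% and 50.6% for RepB-/-, so that the RepB-/- libraries stood a little above RepB+/-. Usp27x, another deubiquitinating enzyme, had no 129 read among 32 in wild type, which allows a share of up to 9.38%, and 39.5% and 16.7% in RepB+/-; its ratio did not pass the test (adjusted p = 0.0856 and 0.138). Cul4b, a scaffold of ubiquitin ligases, had 29.6% and 12.8% in wild type libraries, 37% and 33.3% for RepB+/- and 33% and 35.4% for RepB-/-. Its wild type libraries differ widely, and its ratio changed by 0.99 in RepB+/- and 0.86 in RepB-/- without passing. Total RNA rose in 3 of the 6 genes in RepB+/- and in 2 in RepB-/-. Over all genes 9.12% and 7.27% rose, and over other X-linked genes 33% and 29%, and no count, here or in the lists that follow, is called particular to its list. Ube2a, a ubiquitin-conjugating enzyme with no allelic read, rose in both genotypes: 21 and 14.8 CPM in wild type libraries, 29.3 and 26.5 CPM for RepB+/- and 29.6 and 31.7 CPM for RepB-/-, log2 0.63 in RepB+/- and 0.76 in RepB-/-.

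Chromatin and transcription genes shifted in most cases. Of 16 genes on that list, 14 passed the total filter and 10 the allelic filter. The ratio rose in 9 of 10 in RepB+/- and 8 of 10 in RepB-/-. Over all genes 2.10% and 2.24% did so, and over other X-linked genes 57.7% and 61.3%. The median 129 share over the 10 went from 6.68% to 42.2% and 40.9%. Hdac6 (chrX:7507248-7507663, minus strand), a deacetylase that acts on tubulin, had 4.03% and 6.62% in wild type libraries, 30.1% and 23.6% for RepB+/- and 27.2% and 27.2% for RepB-/-. Its RepB libraries all lay under those of Uba1. Its log2 ratio rose by 2.77 (SE 0.22, adjusted p = 3.14e-33) for RepB+/- and 2.78 (SE 0.22, adjusted p = 2.91e-35) for RepB-/-, and its CAST reads fell at the same time, from 84.9 and 92.1 CPM in wild type to 53 and 61.5 for RepB+/- and 58.6 and 58 for RepB-/-; the log2 change was -0.63 (SE 0.14, adjusted p = 0.00134) for RepB+/- and -0.60 (SE 0.14, adjusted p = 0.0026) for RepB-/-. The fall of Hdac6 CAST reads was called in 4 of 6 fits that leave out a library for RepB+/- and in 3 of 6 for RepB-/-.

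Bcor, a corepressor that works with BCL6 and belongs to a variant Polycomb complex, behaved likewise. The 129 share of Bcor was 4.44% and 4.48% in wild type libraries, 37.9% and 50.4% for RepB+/- and 39.2% and 40.6% for RepB-/-. Its 129 reads rose from 0.929 and 1.1 CPM to 6.53 and 8.66 and 6.63 and 7.31, and its CAST reads dropped from 20.0 and 23.5 CPM to 10.7 and 8.53 and 10.3 and 10.7. The RepB and wild type libraries do not overlap in either allele. The change of CAST reads was -1.14 (SE 0.19, adjusted p = 7.27e-07) for RepB+/- and -1.05 (SE 0.18, adjusted p = 2.40e-06) for RepB-/-, and it was called with each library left out. Total RNA of Bcor was 161 and 188 CPM in wild type libraries, 137 and 148 CPM for RepB+/- and 125 and 139.8 CPM for RepB-/-; it fell in RepB-/- by a log2 change of -0.40 (SE 0.11, adjusted p = 0.0302), a call kept in 3 of 6 leave-one-out fits. In RepB+/- the change was -0.30 (SE 0.11, adjusted p = 0.0898).

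Tfe3, a transcription factor of lysosomal genes, went from 4.44% and 3.84% to 39.1% and 35.6% and 39.6% and 35.4%. Jade3, a scaffold of histone acetyltransferase complexes, went from 10.4% and 9.97% to 43.1% and 43% and 44.8% and 44.1%. Elk1, an ETS-family factor downstream of MAP kinases, went from 3.57% and 5.45% to 40.5% and 32.1% and 44% and 36.6%. In these 3 genes every RepB library was far above every wild type library. CAST reads of Jade3 were called lower in RepB-/- (edgeR, adjusted p = 0.0326) and not in RepB+/-. Suv39h1, the histone H3 lysine 9 methyltransferase, did not pass in either genotype: it had 9.68% and 15% in wild type, 37.9% and 100.0% in RepB+/-, where the second library held 5 allelic reads, and 60.9% and 34.2% in RepB-/- (adjusted p of the ratio = 0.28 and 0.0749). Zfp182, a zinc finger gene, passed in RepB+/- alone of the 2 genotypes, a difference that was not called between them. Total RNA of the 14 genes rose in 5 in RepB+/- and 7 in RepB-/- and fell in 0 and 1, Bcor. Of all genes 9.12% and 7.27% rose and 6.84% and 5.49% fell, and of other X-linked genes 33% and 29% rose. Zbtb33, which encodes the methyl-CpG binding protein Kaiso, rose in RepB-/- by 0.56 (SE 0.13, adjusted p = 0.0114), and Zfp182 rose in both, by 0.79 in RepB+/- and 1.04 in RepB-/-.

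Genes of RNA processing and translation had a median 129 share of 11.3% in wild type, 43.4% for RepB+/- and 48.8% for RepB-/-, beside 7.84%, 39.3% and 40.8% over all 60. The list has 8 genes, 8 tested for total RNA and 5 for the ratio. The ratio rose in 4 of 5 in both genotypes: Gpkow, Ftsj1, Rbm3 and Nkap. It rose in 2.10% and 2.24% of all genes and in 57.7% and 61.3% of other X-linked genes. Ftsj1 (chrX:7815794-7817956, minus strand), which methylates tRNA, had a 129 share of 10.2% and 7.59% in wild type libraries, 47.6% and 38.6% for RepB+/- and 49.3% and 48.3% for RepB-/-, and its 129 reads rose from 0.671 and 0.509 CPM to 6.28 and 6.49 CPM in RepB-/- beside CAST reads of 5.88 and 6.19 CPM and 6.45 and 6.95 CPM. Its total RNA went from 15.5 and 15.3 CPM in wild type to 28.3 and 29.1 CPM for RepB+/- and 28.7 and 29.4 CPM for RepB-/-, a log2 change of 0.89 (SE 0.13, adjusted p = 3.70e-04) for RepB+/- and 0.92 (SE 0.13, adjusted p = 2.55e-04) for RepB-/-. Gpkow, a spliceosome protein, had 7.95% and 10.7% in wild type libraries, 38.6% and 38% for RepB+/- and 39.8% and 37.4% for RepB-/- but a total change of only 0.22 in RepB+/- and 0.28 in RepB-/-, which did not pass. Rbm3, an RNA-binding protein induced by cold, had 12.5% and 19% in wild type libraries, 55.1% and 43.3% for RepB+/- and 58.3% and 53.4% for RepB-/-.

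Rbm10, a splicing regulator, was read from 129 at a high share in every library: 45.7% and 67.3% in wild type libraries, 66.7% and 79.3% for RepB+/- and 68.8% and 71% for RepB-/-. Its ratio did not pass (adjusted p = 1 in both). Ndufb11 lies close by on the opposite strand; the strand setting of the counting is not given in the sources used here, so reads from any overlap cannot be told apart. Thoc2, of the THO complex in mRNA export, and Mcts1, a translation factor, have no allelic test. Total RNA of Mcts1 rose in both (0.77 in RepB+/- and 0.89 in RepB-/-), and that of Thoc2 in RepB+/- by 0.39 (SE 0.11, adjusted p = 0.0289).

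Signalling and cytoskeletal genes form the largest list with allelic counts, 12 of 17 genes. The ratio rose in 7 in RepB+/- and 9 in RepB-/- (2.10% and 2.24% of all genes, 57.7% and 61.3% of other X-linked genes). Total RNA rose in 9 of 17 in each (9.12% and 7.27% of all genes, 33% and 29% of other X-linked genes). Cdk16, a cyclin-dependent kinase, had 10.4% and 7.1% in wild type libraries, 42.3% and 36.6% for RepB+/- and 40.8% and 42.2% for RepB-/- from at least 295 allelic reads per library, and total RNA of 257 and 265 CPM in wild type libraries, 348 and 368 CPM for RepB+/- and 348 and 368 CPM for RepB-/-. Araf, a RAF kinase of the MAP kinase cascade, had 6.37% and 10.1% in wild type libraries, 46% and 44.4% for RepB+/- and 45% and 41% for RepB-/-. Ccdc22, a subunit of an endosomal sorting complex, went from 4.79% and 2.63%, among the lowest, to 42.6% and 49.6% and 43.8% and 46.5%. All 3 had RepB libraries between 36% and 50% with no overlap with wild type. Total RNA of Ccdc22 rose with it, by 0.91 (SE 0.12, adjusted p = 2.41e-04) for RepB+/- and 0.74 (SE 0.12, adjusted p = 0.00105) for RepB-/-.

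Prickle3 (chrX:7234505-7234626 for the listed exon, plus strand), of the planar cell polarity family, reached a lower share. It had 1.34% and 2.26% in wild type libraries, 23.5% and 15.1% for RepB+/- and 17.8% and 19.7% for RepB-/-. Its log2 ratio rose by 3.88 (SE 0.57, adjusted p = 1.08e-09) for RepB+/- and 3.72 (SE 0.55, adjusted p = 2.15e-09) for RepB-/-, from a wild type share near 2%, and the 129 reads reached 1.59 and 2.51 CPM in RepB-/- beside 7.35 and 10.2 CPM from CAST. Its CAST reads were 15.2 and 14.7 CPM in wild type. They changed by a log2 of -0.64 for RepB+/- (edgeR, adjusted p = 0.0575) and -0.77 for RepB-/- (adjusted p = 0.00575). Porcn, the enzyme that acylates Wnt proteins, had 10 to 39 allelic reads per library and no call on the ratio, but its total RNA rose from 10.1 and 9.58 CPM to 27.3 and 18.1 CPM and 22.2 and 23.2 CPM, a log2 change of 1.25 (SE 0.18, adjusted p = 3.52e-04) for RepB+/- and 1.20 (SE 0.18, adjusted p = 4.05e-04) for RepB-/-. Dynlt3, a dynein light chain, rose in total RNA by 0.52 in RepB+/- and 0.73 in RepB-/-; the call in RepB+/- was kept in 5 of 6 leave-one-out fits. The ratio of Dock11, a Cdc42 exchange factor, was based on 0 of 35 reads from 129 in wild type, which allows up to 8.57%, and 28.6% and 34.9% in RepB-/-.

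Pim2, a serine/threonine kinase, gained reads from both chromosomes. Its 129 reads were 0.155 and 0.254 CPM in wild type libraries, 1.54 and 1.16 CPM for RepB+/- and 1.07 and 1.05 CPM for RepB-/-, and its CAST reads 1.29 and 0.763 CPM in wild type libraries, 4.67 and 2.71 CPM for RepB+/- and 2.97 and 2.06 CPM for RepB-/-. Both alleles were higher in every RepB library than in either wild type library. CAST reads rose by 1.86 (SE 0.35, adjusted p = 3.43e-05) for RepB+/- and 1.24 (SE 0.35, adjusted p = 0.0279) for RepB-/-, with the call kept in 5 and 3 of 6 leave-one-out fits. The 129 share itself, 10.7% and 25% in wild type libraries, 24.9% and 30.0% for RepB+/- and 26.5% and 33.8% for RepB-/-, did not pass. Summed pluripotent cell markers were also higher in the RepB libraries (above); their part in the rise was not tested.

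**Figure D4:**
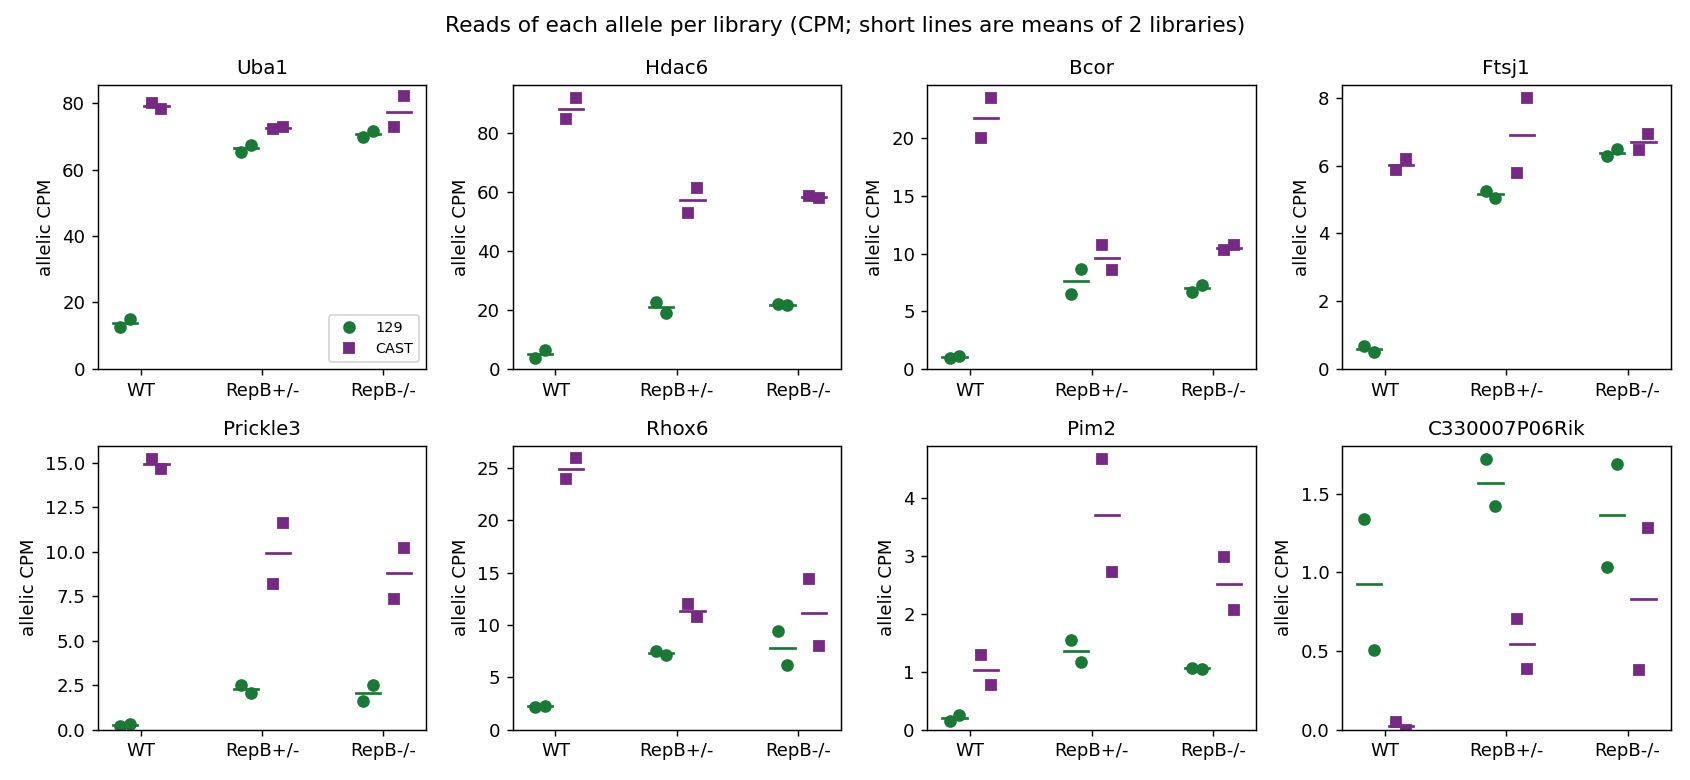
CPM of reads given to the 129 (circles) and CAST (squares) chromosome in each ES library for 8 genes, with means (short lines, n = 2); each panel has its own axis from 0. Uba1 and Ftsj1 gain 129 reads to nearly the CAST level, Hdac6, Bcor and Rhox6 gain 129 and lose CAST reads, as does Prickle3 with a call for CAST in RepB-/- only, Pim2 gains both, and C330007P06Rik gains CAST reads.

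Genes of mitochondria and metabolism numbered 19, with 18 tested for total RNA and 11 for the ratio. The ratio rose in 7 in RepB+/- and 6 in RepB-/- (2.10% and 2.24% of all genes, 57.7% and 61.3% of other X-linked genes). Ndufb11 (chrX:20192452-20192668, minus strand), a subunit of respiratory complex I, had 12.5% and 16.3% in wild type libraries, 44.2% and 54.4% for RepB+/- and 42.7% and 49.1% for RepB-/- from 388 to 1858 allelic reads. Its ratio rose by 2.51 (SE 0.23, adjusted p = 1.52e-24) for RepB+/- and 2.35 (SE 0.22, adjusted p = 4.42e-23) for RepB-/-. CAST reads of Ndufb11 were called lower in RepB+/- (edgeR, adjusted p = 0.0193) and not in RepB-/-. Timm17b, of the mitochondrial import machinery, had 10.4% and 15.7% in wild type libraries, 50.9% and 64.4% for RepB+/- and 47.2% and 46.8% for RepB-/-, and Praf2, a small membrane protein, had 10.6% and 7.41% in wild type libraries, 26.4% and 23.1% for RepB+/- and 27.8% and 25% for RepB-/-. Ndufb11 and Timm17b thus lay near an even share in the RepB libraries, and Praf2 lay under 30% in all of them. Chst7, a sulfotransferase, stayed lower still at 20.5% and 25% in RepB-/-, and its ratio passed in RepB+/- (adjusted p = 0.0139) and not in RepB-/- (adjusted p = 0.0829).

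In total RNA, 6 of the 18 rose in RepB+/- and 9 in RepB-/-, where 9.12% and 7.27% of all genes and 33% and 29% of other X-linked genes rose. Ebp, a sterol isomerase of cholesterol synthesis, rose from 10.3 and 8.56 CPM to 21.2 and 17.6 CPM and 19.6 and 18.9 CPM, a log2 change of 1.05 (SE 0.16, adjusted p = 6.42e-04) for RepB+/- and 1.02 (SE 0.16, adjusted p = 7.02e-04) for RepB-/-. Slc25a5, the ADP/ATP carrier of the inner membrane, rose in total RNA by 0.64 (SE 0.11, adjusted p = 0.00173) for RepB+/- and 0.68 (SE 0.11, adjusted p = 0.00102) for RepB-/- at a 129 share that hardly moved: 63.9% and 63.8% in wild type libraries, 61.4% and 63.6% for RepB+/- and 64% and 67.9% for RepB-/-. Slc25a5 has near-identical pseudogene copies, to which the counting could give or deny reads, so its shares are uncertain. Ndufa1, another complex I subunit without allelic reads, rose by 0.42 in RepB+/- and 0.40 in RepB-/-.

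The neuron and synapse list (13 genes, 9 tested, 4 with allelic counts) had few genes to test for alleles. The ratio rose in all 4 tested in each genotype. Over all genes 2.10% and 2.24% did so, and over other X-linked genes 57.7% and 61.3%. Tspan7, a tetraspanin of neurons, went from 0.319% and 2.53% to 26.7% and 18.8% and 26.5% and 28.9%. Cask, a synaptic scaffold, went from 6.87% and 0% to 30.5% and 17.6% and 35.7% and 37.2%. Kcnd1, a potassium channel, went from 9.73% and 4.82% to 39.6% and 37.5% and 38.7% and 42.8%. These 3 began between 0% and 10% and ended under 43%. Pcsk1n, an inhibitor of a prohormone protease, had 3.6% and 5.56% in wild type libraries, 39.5% and 47.5% for RepB+/- and 32.4% and 31.7% for RepB-/- and lost CAST reads (-0.96 in RepB+/- and -0.98 in RepB-/-), a call kept in 3 of 6 leave-one-out fits for each genotype.

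Syn1, which encodes the synaptic vesicle protein synapsin, showed one of the largest rises in total RNA. It was at 4.34 and 4.75 CPM in wild type libraries, 14.5 and 15 CPM for RepB+/- and 9.01 and 11.8 CPM for RepB-/-. Its log2 change was 1.70 (SE 0.20, adjusted p = 7.31e-05) for RepB+/- and 1.20 (SE 0.20, adjusted p = 0.00102) for RepB-/-, and it was called with each library left out. Syn1 passed no allelic filter. Of all genes 9.12% and 7.27% rose in total RNA, and of other X-linked genes 33% and 29%. Total RNA rose in 2 and 3 of the 9 genes; Pcsk1n was the one that fell, in RepB-/- by a log2 change of -0.49 (SE 0.14, adjusted p = 0.0313), kept in 2 of 6 leave-one-out fits. Summed neuron markers came to 49.6 to 61.8 CPM over the ES libraries, but 1 of 7 tested was called higher and 1 lower in each genotype. Stmn2 was at 9.96 and 8.90 CPM in wild type and 16.1 to 22.3 in the RepB libraries, and Tubb3 at 32.8 and 28.8 against 16.7 to 23.4. Their part in the rise of Syn1 was not tested.

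Of 10 blood and immune genes 7 were tested, and 4 rose in total RNA in each genotype: Cybb, Cfp, Was and Pim2. Over all genes 9.12% and 7.27% rose, and over other X-linked genes 33% and 29%. The other 3 of the 7 did not pass. Xk and Gpr34 had changes above 0, and Gata1, an erythroid transcription factor, had -0.33 in RepB+/- and -1.09 in RepB-/-. Cybb, the catalytic subunit of the phagocyte NADPH oxidase, was at 2.74 and 3.48 CPM in wild type libraries, 7.93 and 5.43 CPM for RepB+/- and 7.9 and 10.4 CPM for RepB-/-; the log2 change was 1.19 (SE 0.26, adjusted p = 0.0062) for RepB+/- and 1.57 (SE 0.25, adjusted p = 6.92e-04) for RepB-/-. Cfp, the complement regulator properdin, was at 7.07 and 9.67 CPM in wild type libraries, 13.6 and 18.1 CPM for RepB+/- and 13 and 19.7 CPM for RepB-/- (log2 0.91 in RepB+/- and 0.98 in RepB-/-), and Was, a regulator of actin in blood cells, at 6.35 and 6.19 CPM in wild type libraries, 8.64 and 14.9 CPM for RepB+/- and 9.84 and 11.2 CPM for RepB-/- (log2 0.82 in RepB+/- and 0.74 in RepB-/-). Each of these was higher in all RepB libraries than in wild type. The 9 macrophage markers summed to 197 and 189 CPM in wild type libraries, 278 and 376 for RepB+/- and 284 and 375 for RepB-/-; 6 and 7 of the 9 rose, and none was at 0. Their part in the rise of these genes was not tested. Erythroid and T cell markers summed to 7.30 to 9.92 and 7.95 to 9.44 CPM. Of 2 erythroid markers tested, 1 was called higher in each genotype; Epor, at 6.52 to 9.67 CPM, makes up most of the sum, and Klf1 was at 0.052 and 0 CPM in wild type and 0.386 to 0.905 in the RepB libraries. Hbb-b1, Hbb-b2, Hba-a1 and Cd3d were at 0 in every ES library, and the part of these cells in the values was not tested.

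Of 4 immune genes with allelic counts only Cfp passed the test for a higher ratio (2.10% and 2.24% of all genes, 57.7% and 61.3% of other X-linked genes). It had no 129 read among 52 in wild type, which allows up to 5.77%, and 41.2% and 19.2% for RepB+/- and 50.0% and 31.7% for RepB-/-. The RepB+/- call was lost in 3 of 6 leave-one-out fits and by DESeq2. Cybb and Xk, a membrane transporter of red cells, had 22% and 48.3% and 46.3% and 34.5% in RepB-/- on 41 to 58 reads, with 28.6% and 30.8% for Xk already in wild type. The mean share of Cybb was 12.5% in wild type, 26.2% for RepB+/- and 35.1% for RepB-/-. Its 129 reads were called higher in RepB-/- (edgeR, adjusted p = 0.0373) and not in RepB+/- (adjusted p = 0.0871).

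Total RNA of 3 Rhox genes fell in both RepB genotypes. Of 40 Rhox and germ cell genes, 7 passed the total filter, and 3 of these fell in each genotype (6.84% and 5.49% of all genes fell), namely Rhox4g, Rhox6 and Rhox9. None rose, and the median change over the 7 was 0.01 and 0.20. Rhox1 was higher by 1.64 in RepB+/- and 1.55 in RepB-/- without passing. Rhox6 (chrX:35180232-35180356, plus strand), a homeobox gene of placenta and germ line, was at 119 and 108 CPM in wild type libraries, 75.5 and 66.3 CPM for RepB+/- and 92 and 59.4 CPM for RepB-/-, and Rhox9 at 128 and 132 CPM in wild type libraries, 74.5 and 76 CPM for RepB+/- and 90.2 and 56.4 CPM for RepB-/-. Rhox4g was at 1.39 and 2.46 CPM in wild type libraries, 0.492 and 0.258 CPM for RepB+/- and 0.863 and 0.32 CPM for RepB-/-. All RepB libraries lay under wild type in these 3. The changes were -0.67 (SE 0.16, adjusted p = 0.0101) for RepB+/- and -0.58 (SE 0.16, adjusted p = 0.0218) for RepB-/- for Rhox6, and -0.79 (SE 0.16, adjusted p = 0.00384) for RepB+/- and -0.82 (SE 0.16, adjusted p = 0.00272) for RepB-/- for Rhox9. With each library left out Rhox9 kept its call, Rhox6 kept it in 5 of 6 and 3 of 6 fits, and Rhox4g in 4 of 6 and 2 of 6; genes of the Rhox4 subfamily are near-identical copies, so Rhox4g is uncertain.

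The 129 chromosome gained reads here too. Rhox6 had a 129 share of 8.3% and 8.11% in wild type libraries, 38.5% and 39.9% for RepB+/- and 39.6% and 43.7% for RepB-/-, and Rhox9 of 7.78% and 5.29% in wild type libraries, 22.7% and 30.3% for RepB+/- and 23.3% and 31.5% for RepB-/-. CAST reads of Rhox6 fell from 23.9 and 25.9 CPM to 12 and 10.7 and 14.4 and 8 CPM while its 129 reads rose from 2.17 and 2.29 to 7.51 and 7.11 and 9.42 and 6.22 CPM. CAST reads of Rhox9 were also called lower (edgeR, adjusted p = 0.00697 for RepB+/- and 1.47e-05 for RepB-/-). The 7 trophoblast markers summed to 450.1 and 534 CPM in wild type and 237 to 263 in the RepB libraries. Of 6 tested, 3 fell in each genotype and 1 rose in RepB+/-. The 6 germ cell markers summed to 15.5 and 15.5 CPM in wild type and 23.0 to 32.7 in the RepB libraries. Of these, 3 were called higher in RepB+/- and 1 in RepB-/-, and none lower. The part of either cell type in the change of the Rhox genes was not tested.

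Over all 116 genes, total RNA rose in 40 and fell in 3 in RepB+/- (9.12% and 6.84% of all genes), and rose in 44 and fell in 5 in RepB-/- (7.27% and 5.49%). The median log2 change was 0.45 and 0.43, against 0.02 and 0.01 over all genes and 0.36 and 0.32 over 427 other X-linked genes, of which 141 and 124 rose. The part of the differing make-up of the cultures (above) in these changes was not tested. Of genes in no role list, 9 of 34 rose in each genotype, among them Upf3b, of nonsense-mediated decay (0.77 in RepB+/- and 0.53 in RepB-/-), and Gm9 (2.14 in RepB+/- and 1.62 in RepB-/-). The count of genes that rose changed with the libraries used. In RepB+/- it was 20 when the first wild type library was left out, 19 when the second was and 25 with RepB+/- replicate 1 left out. In RepB-/- it was 20 with either wild type library left out, 25 with RepB-/- replicate 1 left out and 20 with RepB-/- replicate 2 left out. The 5 that fell in RepB-/- became 2, 1, 2 and 2 in those fits, in that order, and 8 with RepB+/- replicate 2 left out.

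**Figure D5:**
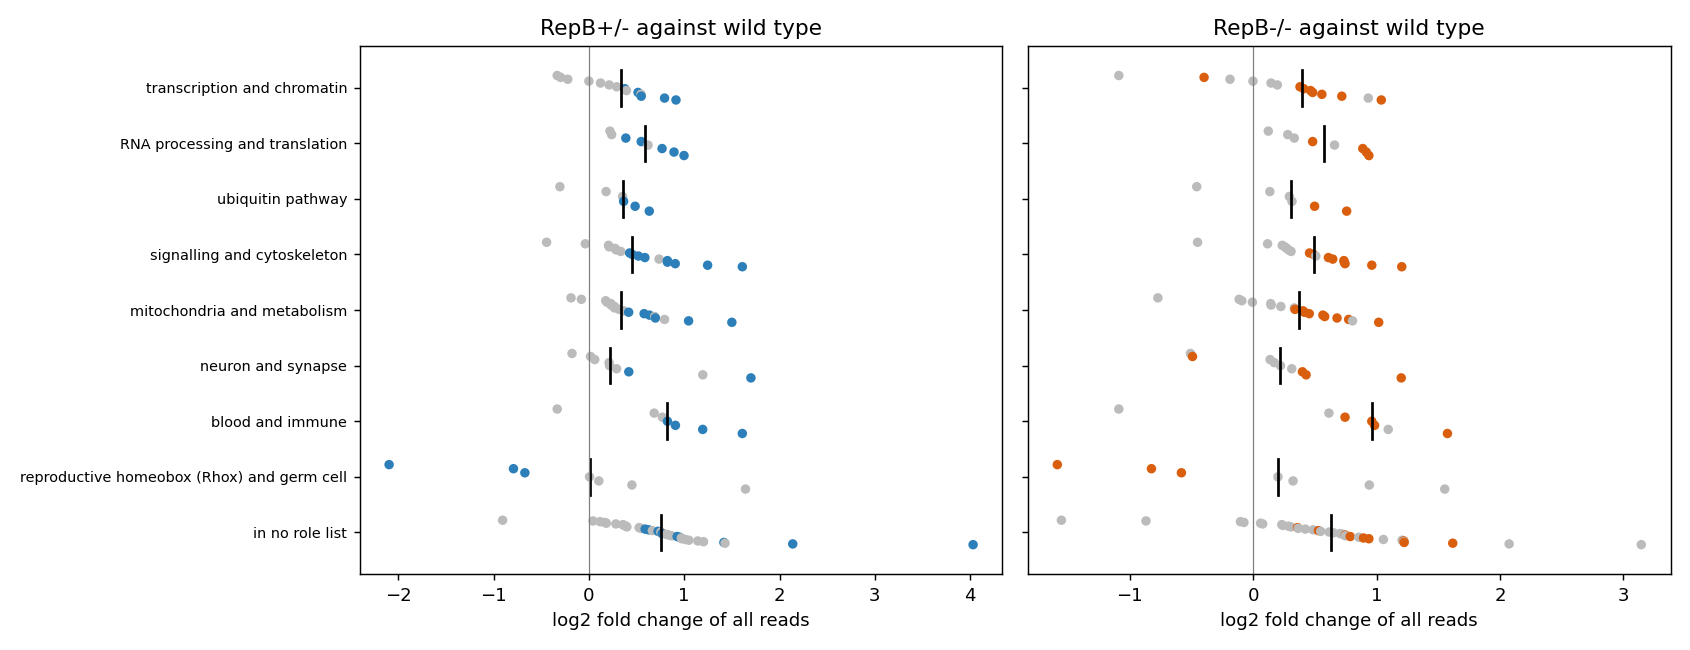
Log2 fold change of all reads for the genes tested in each role list, RepB+/- and RepB-/- against wild type (points; coloured where edgeR's adjusted p is under 0.05), with the list median (vertical lines); a gene on 2 lists is drawn on both. Most medians lie above 0, and 3 Rhox genes lie below it in both panels.

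Genes with a higher share in wild type also had a higher share in RepB-/-. Across the 60 genes the wild type and RepB-/- shares had Pearson r = 0.67 and Spearman rho = 0.72, a description over genes that share libraries and mapping. Expression level per exon length showed little relation to the RepB-/- share (r = 0.17, rho = 0.17). In RepB-/-, 11 of the 60 had a mean share under 30%, 30 from 30% to under 45%, and 19 at or above 45%. The lowest were Dgkk, a diacylglycerol kinase, at 8.72% ± 0.347 (SD, n = 2), Tmem255a at 10.5% ± 2.78, Prickle3 at 18.7% ± 1.38, B630019K06Rik at 20.5% ± 6.36, Srpx at 21.6% ± 8.04 and Chst7 at 22.7% ± 3.19. Dgkk was still well read, with 177 and 145 allelic reads in RepB-/-, and its ratio did not pass (adjusted p = 0.0634 and 0.647).

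At the other end stood genes read from 129 in all genotypes. C330007P06Rik had 96.3% and 100.0% in wild type libraries, 71% and 78.6% for RepB+/- and 73.2% and 56.9% for RepB-/-, and its CAST reads rose from 0.0516 and 0 CPM in wild type to 0.702 and 0.388 and 0.38 and 1.28. Its share was lower in all RepB libraries than in either wild type library, which no other gene of the 60 shows in RepB-/- and only Slc25a5 shows in RepB+/-. Its ratio did not pass (adjusted p = 0.505 and 0.137). Its total RNA rose by 0.95 in RepB+/- and 0.94 in RepB-/-. AU022751, listed by RefSeq as Ezhip, an inhibitor of the Polycomb complex PRC2, had 78.6% and 44.4% in wild type libraries, 61.1% and 71.4% for RepB+/- and 52.4% and 64.3% for RepB-/- from 9 to 54 reads, and it was not matched to the chromatin list under that older name.

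Promoter sequence was set beside these shares. RefSeq (GRCm38.p6) gave a promoter, 250 bases before to 50 bases after the start, for 207 of the 266 genes and 52 of the 60; the build differs from that of the counts, so only names were matched. The 52, which had passed the allelic filter, held a median of 16 CpG, against 8 over all 27025 genes with a promoter, which were not filtered. Without the filter, the 207 held a median of 7, as did X genes elsewhere. The number of CpG showed little relation to the RepB-/- share (r = 0.068, rho = 0.095, n = 52). Motifs were searched on both strands. For a gene with several listed starts, the highest CpG count was taken and a motif match at any start was counted. The GC box GGGCGG was in 57.7% of the 52 (38.2% of all genes), the ETS motif CCGGAAG in 7.69% (9.93%), the palindromic NRF1 motif in 1.92% (1.07%), the TATA motif TATAAA in 3.85% (15.7%) and the YY1 core AAGATGGC in 5.77% (3.19%). Over the unfiltered 207 the GC box was in 33.8% and the TATA motif in 11.1%, and over X genes elsewhere in 36.8% and 17.4%. A match is a description of letters, not a bound site.

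The YY1 core is shown because of its 3 carriers, Suv39h1, Wdr13 and Uba1. All belong to the 19 genes with a RepB-/- share of at least 45% (3 of 17 with a promoter, against 0 of 35 below). This pattern was seen after the values were known and was not tested. It depends on the cut at 45%. Wdr13 had a mean of 45.6% in RepB-/- and 39.8% in RepB+/-. The RepB-/- libraries of Suv39h1 lay on either side of the cut, and its ratio did not pass (above). Each window (coordinates GRCm38.p6) reads 5′ to 3′ on the gene's strand, with the motif or its reverse complement in capitals.
Suv39h1, chrX:8074548-8074575, minus strand: gctgtggagaAAGATGGCggaaaattta
Wdr13, chrX:8132809-8132827, minus strand: gttgcaggcaGCCATCTTg
Uba1, chrX:20662918-20662945, plus strand: ctctgccgccGCCATCTTgtgtcggctg

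The 250 bases upstream of 4 genes with called shifts are shown to set low and high shares side by side (coordinates GRCm38.p6): Prickle3 and Hdac6 ended low in RepB-/-, at 18.7% ± 1.38 and 27.2% ± 0.0167, and Ndufb11 and Ftsj1 high, at 45.9% ± 4.5 and 48.8% ± 0.723. Capitals mark a GC box or ETS motif on either strand, and these 4 were chosen after their values were seen.
Prickle3, chrX:7657129-7657378, plus strand: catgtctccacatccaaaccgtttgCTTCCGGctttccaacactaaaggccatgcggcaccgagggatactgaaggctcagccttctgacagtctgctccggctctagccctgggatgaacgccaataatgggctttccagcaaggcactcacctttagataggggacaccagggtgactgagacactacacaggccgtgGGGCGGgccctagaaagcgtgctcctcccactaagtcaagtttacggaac
Hdac6, chrX:7947890-7948139, minus strand: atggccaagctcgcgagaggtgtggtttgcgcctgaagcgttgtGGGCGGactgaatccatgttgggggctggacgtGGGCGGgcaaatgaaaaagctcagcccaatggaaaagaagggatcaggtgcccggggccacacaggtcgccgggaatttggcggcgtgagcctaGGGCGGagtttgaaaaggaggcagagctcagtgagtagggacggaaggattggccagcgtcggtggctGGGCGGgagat
Ndufb11, chrX:20617620-20617869, minus strand: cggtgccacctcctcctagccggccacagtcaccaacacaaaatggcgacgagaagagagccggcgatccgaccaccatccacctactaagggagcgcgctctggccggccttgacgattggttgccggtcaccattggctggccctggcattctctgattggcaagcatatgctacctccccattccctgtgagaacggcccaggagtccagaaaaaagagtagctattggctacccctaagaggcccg
Ftsj1, chrX:8252407-8252656, minus strand: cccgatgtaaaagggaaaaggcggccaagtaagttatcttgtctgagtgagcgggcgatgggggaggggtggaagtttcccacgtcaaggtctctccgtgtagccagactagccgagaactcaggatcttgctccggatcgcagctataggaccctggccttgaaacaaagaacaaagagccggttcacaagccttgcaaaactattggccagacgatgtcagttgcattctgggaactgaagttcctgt
These 4 do not stand for their classes: a GC box was in 77.8% of the genes with a RepB-/- share under 30%, 53.8% of those from 30% to under 45% and 52.9% of those at or above 45%. Hdac6 holds 4 GC boxes and 17 CpG in this window and Prickle3 1 GC box, 1 ETS motif and 10 CpG. No searched motif was found in Ndufb11 (14 CpG) or Ftsj1 (11 CpG), which says only that these letters are not in these windows.

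No gene of the stretch passed a test between RepB+/- and RepB-/-. In this direct comparison edgeR called no gene of 60 for the ratio (0.190% and 0.112% of all genes toward 129 and CAST) and none of 116 for total RNA (0.0198% higher and 0.0660% lower). At an unadjusted p under 0.05 there were 0 for the ratio and 3 higher and 6 lower for total RNA, and DESeq2 called none in either. The ratio differed by a median of 0.01 and by -0.75 to 0.74 over the 60. Otud5 and Cask had the lowest p for the ratio: 0.45 (SE 0.32, adjusted p = 1) and 0.70 (SE 0.42, adjusted p = 1). In total RNA these were Tmem255a, -0.80 (SE 0.20, adjusted p = 0.231), and Pim2, -0.65 (SE 0.19, adjusted p = 0.361). A missed threshold does not show that the 2 genotypes are equal.

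Some genes of the stretch gave no allelic reads. Of the 116, 12 had no allelic read in any of the 8 libraries, and 9 genes with a mean of at least 50 reads per ES library were among those without one. All 9 start between 33.7 and 36.0 Mb: Zcchc12, Lonrf3, Ube2a, Nkrf, Sept6, Ndufa1, Rnf113a1, Rhox12 and C1galt1c1. Their neighbours Pgrmc1, Slc25a5, Nkap and Rhox6 did have allelic reads. Total RNA of these 9 can be compared; their 129 share is not known here.

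In MEF, with 1 library each and so no test, the 129 chromosome was read at a very low share in both genotypes. Over 33 genes with at least 20 allelic reads in both libraries, the median 129 share was 1.01% in wild type and 0.338% in RepB, with 14 and 15 genes at 0 and 3 and 2 genes above 10%. Uba1 had 0.644% (10 of 1552 reads, interval 0.309% to 1.18%) in wild type and 0.412% (9 of 2184 reads, interval 0.189% to 0.781%) in RepB (exact Clopper-Pearson 95%, counting error only). Hdac6 had 1.94% (9 of 463 reads, interval 0.893% to 3.66%) and 0.274% (2 of 731 reads, interval 0.0332% to 0.985%). Neither showed the rise seen in ES cells. Rbm10, 64.7% (44 of 68 reads, interval 52.2% to 75.9%) and 69% (118 of 171 reads, interval 61.5% to 75.8%), and Slc25a5, 60.3% (173 of 287 reads, interval 54.4% to 66%) and 64.5% (209 of 324 reads, interval 59% to 69.7%), were again read mostly from 129. Below them came Rbm3 at 18.4% and 9.3% and Ndufb11 at 6.76% and 8.34%.

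Total RNA in MEF differed little as well. Over 71 genes whose mean level was 1 CPM or more the median log2 ratio of RepB to wild type was -0.01, with none more than 2-fold higher (3.33% of all genes) and 4 more than 2-fold lower (6.47%). Tspan7 went from 80 reads to 0, at least 44.9-fold lower against a floor of 3 counts in the RepB library. AA414768 went from 74 reads to 21 (log2 ratio -2.43), Syn1 from 62 to 32 (-1.63) and Bcor from 1455 to 1162 (-1.07), the RepB library being the deeper one. Among genes with at least 50 reads the highest ratios were those of Rbm3 (0.77), C1galt1c1 (0.73), Upf3b (0.71), Rp2h (0.61) and Fundc1 (0.51). Syn1 rose in both RepB genotypes of ES cells and AA414768 in RepB-/-, and both were lower in RepB MEF. That difference was not tested. The 2 MEF libraries also differed in neuron markers, which summed to 181.8 CPM in wild type and 103.4 CPM in RepB. Tubb3 was at 85.3 and 22.2 CPM, and Map2 at 89.6 and 81.0 CPM. The part of that difference in the values of Tspan7 and Syn1 was not tested.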

How the data were processed

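RNA-seq counts were analysed for 6 differentiated ES cell libraries and 2 MEF libraries. The authors deposited tables of whole-number read counts per gene, for all reads and for reads given to the 129 or the CAST chromosome, on mm9 coordinates per the file headers and the submitters' processing notes. Those notes also name Novoalign, SAMtools, bedtools, TopHat, featureCounts, cutadapt and HOMER, with no versions. Treatment of strand, duplicates and multiple mapping is not given in the sources used here, nor is how variant reads were chosen, which could favour an allele at single genes. The mm9 coordinates printed beside gene names are those of a listed exon, not of the whole gene. The start used for position is of the same kind.

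From these counts, edgeR 4.0.16 (R 4.3.3, limma 3.58.1) quasi-likelihood fits ran over all genes on the 6 ES libraries, with genotype as the only term, TMM scaling, filterByExpr (10 and 15 counts) and Benjamini-Hochberg adjustment (threshold 0.05). The 129 to CAST ratio used an allele-by-genotype term with a block per library, for genes with at least 20 allelic reads per ES library on average. Reads of each allele were also fitted alone, scaled to all reads. Fold changes are log2, with standard errors taken from the F statistic. The total RNA fit had a biological coefficient of variation of 9.49%, which with the depths above limits small changes. MEF ratios are log2 of CPM with a prior count of 2, for genes averaging 1 CPM or more. Intervals are exact at 95%. The fits were also run on simulated counts, with a fixed spread between libraries for all reads and counting noise alone for the alleles. The real libraries differed by more than counting noise (above), so that run does not bear on the p-values given here. Alternatives were DESeq2 1.42.0, other scaling, filters, a replicate block and leaving out each library.

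The genes and their role lists were chosen with earlier results of these data known. Genes were named by rule: up to 4 per list and 8 overall with the most allelic reads, the lowest adjusted p in each direction, the highest and lowest 129 shares, the extreme MEF ratios, and any member of a list whose count is broken down. Gm9, Upf3b in ES cells and the promoters printed were singled out after their values were seen.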

Additional observations from a re-analysis of the deposited data

Results flagged for a closer look

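The RepB genotypes differed between cell types in 3 values of the stretch. The median 129 share over 33 genes moved by -0.672 percentage points from wild type (1.01%) to RepB MEF (0.338%). Both medians were near 0, with 14 and 15 genes at 0. Over 166 other X-linked genes the median was 0% in wild type and 0.422% in RepB MEF. In ES cells every RepB library lay above both wild type libraries. Syn1, the synapsin gene, had a log2 ratio of total RNA of -1.63 in MEF and rose in both RepB genotypes of ES cells. AA414768 had a log2 ratio of -2.43 in MEF and rose in RepB-/- ES cells. MEF had 1 library per genotype, and none of these differences was tested. The MEF libraries also differed in summed neuron markers (above).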

How the results depend on the processing

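The count of genes with a ratio shifted toward 129 stayed similar in size under every alternative run. Direction was checked for the named genes only, and none called with all libraries changed it. With 1 library left out, the ratio shifted toward 129 in 31 to 40 genes in RepB+/- and 30 to 39 in RepB-/-, and 129 reads rose in 36 to 46 and 36 to 50. Total RNA then rose in 19 to 45 and 20 to 56 genes and fell in 2 to 4 and 1 to 8, and 0 to 2 genes were lower in RepB-/- than RepB+/-. CAST reads fell in 2 to 6 and 2 to 8 genes and rose in 0 to 3 and 0 to 2. A genotype left with 1 library is assumed to vary like the others. DESeq2 called 34 and 38 genes higher in total RNA and 31 and 31 with a ratio toward 129.

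The rise of the median 129 share ran from 29.5 to 31.7 points in RepB+/- and 31.97 to 33.3 in RepB-/- with 1 library left out, and its excess over the rest of the X from 3.60 to 6.16 and 4.32 to 6.73. The difference between RepB-/- and RepB+/- ran from 0.975 to 3.17, and was -0.309 with genes of at least 10 allelic reads. Against the rest of the X that difference ran from -0.636 to 1.93, below 0 without RepB+/- replicate 1 and without RepB-/- replicate 2; it was -1.36 with at least 10 allelic reads and -0.968 with pooled reads. With no filter on low counts 2 genes were lower in RepB-/- than RepB+/- in total RNA. CAST reads rose in 1 gene in RepB-/- with at least 50 allelic reads, and fell in 4 in RepB+/- with library size only. In MEF 1 gene was over 2-fold lower at a mean of at least 5 CPM. The cause was not tested in any of these. Other scalings moved all log2 changes by at most 0.0844.

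With the replicate number as a block (replicate block), total RNA rose in 50 and 55 genes and fell in 5 and 7, the ratio shifted in 38 and 38, and CAST reads fell in 10 and 8. Same-numbered libraries had correlated deviations of 0.18, 0.09 and 0.25, and with 2 numbers they share only a number. Low allelic depth limits genes near the filter, such as Porcn with 10 to 39 allelic reads per library.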
